A study of Mus musculus with 4 samples.

Results

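mmu-miR-21, mmu-miR-31, mmu-miR-135b, mmu-miR-221 and mmu-miR-222 (named without the mouse prefix from here on) are mouse microRNAs (miRNAs) reported at higher levels in squamous carcinoma or in hyperplastic, overgrowing epidermis, and each has been linked to growth. The 5 were taken by name, on account of those reports and with earlier results of these data known, from a panel of 566 mouse miRNA probes. Levels were measured with the nanoString nCounter assay, in which each miRNA is hybridised to a colour-coded barcode and single barcodes are counted. There were 2 samples of oncogenic and 2 of normal epidermal cells, numbered 1 and 2 in the titles of each group. Oncogenic cells came from adult R26stoprtTA/+ Col-tetO-YAPS127A/+ mice that also carried K14-Cre, which is active in basal keratinocytes. Normal cells came from R26stoprtTA/+ Col-tetO-YAPS127A/+ mice without Cre, so the YAP transgene was present in both groups. All mice drank doxycycline at 1 mg/ml for 8 days, which turns on YAPS127A only where Cre has acted. YAP S127A is a constitutively active form of YAP, the growth-promoting coactivator that the Hippo pathway restrains. Back skin was treated with trypsin and the epidermal cells were scraped off. The titles call the oncogenic samples tumours, whereas the condition label and the protocol describe epidermal cells. The control group had 6 animals and nothing ties samples to animals, so p-values measure only how far these samples lie apart, a spread that may be technical. The comparison asks whether the levels of the 5 differ between the oncogenic and the normal cells.

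A miRNA guides a silencing complex to messenger RNAs that pair with its seed, the bases near its 5′ end, and miRNAs with the same seed can share targets. miR-21 lies in the Vmp1 locus, is one of the miRNAs most often found raised in tumours, and represses Pdcd4, an inhibitor of translation that limits growth. miR-221 and miR-222 are made from neighbouring hairpins and repress the cell cycle inhibitor p27, as shown in human cells. miR-31 is induced in psoriatic and wounded epidermis and promotes keratinocyte proliferation. miR-135b is known from human colorectal cancer, where it represses the tumour suppressor APC.

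The mature sequences are shown because 2 of the 5 miRNAs share a seed but differed in the order of their samples. No test run here set these 2 apart. RefSeq sequences (build GRCm38.p6) were matched for 4 of the 5 members, with the older probe names read as the arm that carried the plain name. Each is written 5′ to 3′ with the seed, bases 2 to 8, in capitals.
miR-21 (miR-21a-5p): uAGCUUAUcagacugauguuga
miR-31 (miR-31-5p): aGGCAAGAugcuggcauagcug
miR-221 (miR-221-3p): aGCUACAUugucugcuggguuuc
miR-222 (miR-222-3p): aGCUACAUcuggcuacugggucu
miR-1928: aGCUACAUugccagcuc
miR-21 lies at chr11:86584120-86584141 on the minus strand, within the annotated span of Vmp1. miR-31 lies at chr4:88910614-88910635 on the minus strand, within the annotated span of the gene model Gm49890. miR-221 (chrX:19146307-19146329) and miR-222 (chrX:19146901-19146923) lie on the minus strand of the same chromosome, with 571 bases between them and no other annotated gene across either. They begin with the same 8 bases and are identical at 11 of 23 positions when aligned from the 5′ end without gaps. miR-1928 (chr1:74206562-74206578, minus strand) is the one other panel probe, among those matched to RefSeq, found with the seed of one of the 4 matched members. The seed of miR-135b, whose sequence was not matched, was not searched. miR-1928 matches miR-221 over the first 10 bases and at 14 of 17 positions, and it is shown beside the pair for the shared seed. The panel was not searched by whole sequence.

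The deposited values are counts multiplied by a factor for each sample, called normalized counts here. A total of 230284 and 53709 miRNA counts was recovered in the oncogenic samples, against 189058 and 156092 in the normal samples, so oncogenic sample 2 was the shallowest. The keratinocyte miRNAs miR-205 and miR-203 were among the 5 most abundant probes, as was miR-720. miR-720 made up 45.9% of all miRNA counts in oncogenic sample 1 and was also the top probe of normal sample 1. Probes for viral miRNAs, which have no target in mouse cells, reached at most 18.3 and 22.9 normalized counts in the oncogenic samples, and 17.6 and 27.6 in the normal samples. The test was restricted to the 124 of 566 miRNAs that reached 30 normalized counts in 2 samples or more. Of the members, miR-21, miR-221 and miR-222 were tested, while miR-31 and miR-135b stayed below 30 in all 4 samples.

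mmu-miR-21 was the member with the most counts. It stood at 1499 and 653 normalized counts in oncogenic samples 1 and 2, against 684 and 358 in normal samples 1 and 2. Oncogenic sample 1 was the highest and normal sample 2 the lowest, and the groups overlapped because oncogenic sample 2 lay slightly below normal sample 1. The means were 1076 ± 598 in oncogenic and 521 ± 231 in normal cells (SD, n = 2 each). The log2 difference, oncogenic minus normal and computed on log2(value + 1), was 1.00 (SE 0.55, 95% interval -0.48 to 2.48), and it did not pass the test (limma adjusted p = 0.360). The replicates of miR-21 lay far apart, by 1.20 log2 units in oncogenic and 0.93 in normal cells. The median over all tested miRNAs was 0.56 in oncogenic and 0.40 in normal cells, and only 26 and 22 of the 124 spread more widely than miR-21 did. Without oncogenic sample 1 the difference was 0.40 and without normal sample 2 it was 0.53, whereas without oncogenic sample 2 it was 1.60 and without normal sample 1 it was 1.46.

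mmu-miR-221 had no overlap between groups. It stood at 82.1 and 89.8 normalized counts in the oncogenic samples, against 37.8 and 50.0 in the normal samples. Both oncogenic samples were higher than both normal samples, and the oncogenic replicates were closer to each other than the normal ones. The means were 86.0 ± 5.46 in oncogenic and 43.9 ± 8.61 in normal cells (SD, n = 2 each). The log2 difference was 0.97 (SE 0.36, 95% interval 0.02 to 1.92), and it did not pass the threshold of 0.05 once adjusted over all tested miRNAs (limma adjusted p = 0.197). The interval, which is not adjusted for the number of tests, ended just above 0. These values rest on 94 and 51 recovered counts in the oncogenic samples, with exact 95% Poisson intervals of 76.0 to 115 and 38.0 to 67.1. The normal samples gave 43 and 58 counts, with intervals of 31.1 to 57.9 and 44.0 to 74.98. Poisson and Wilson intervals given here cover counting error only.

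mmu-miR-222, the neighbour of miR-221 with the same seed, did not show this order. It stood at 38.4 and 35.2 normalized counts in the oncogenic samples, against 34.3 and 55.1 in the normal samples. Normal sample 2 was highest, the other 3 samples lay close together, and the groups overlapped. The means were 36.8 ± 2.26 in oncogenic and 44.7 ± 14.8 in normal cells (SD, n = 2 each), and the log2 difference was -0.24 (SE 0.41, 95% interval -1.34 to 0.87, limma adjusted p = 0.815). That interval does not show that miR-222 was equal in both groups. Its sign was positive without normal sample 2 (0.10). The shallowest library, oncogenic sample 2, held 20 recovered counts of miR-222, with an exact 95% Poisson interval of 12.2 to 30.9. miR-1928 had 5.24 and 14.1 normalized counts in the oncogenic samples, against 4.39 and 6.89 in the normal samples, below the highest viral probe in each.

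mmu-miR-31 was close to background. It stood at 23.6 and 12.3 normalized counts in the oncogenic samples, against 14.1 and 15.5 in the normal samples, and the groups overlapped. Oncogenic sample 1 was the highest and the one sample in which miR-31 exceeded every viral probe, whereas 6 of the 33 viral probes were at or above it in oncogenic sample 2, 1 in normal sample 1 and 3 in normal sample 2. Recovered counts were 27 and 7 in the oncogenic samples and 16 and 18 in the normal samples, above the highest of the 6 negative control probes in every sample. No test was run at this level.

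mmu-miR-135b was not told apart from background. It stood at 1.75 and 5.28 normalized counts in the oncogenic samples, against 4.39 and 3.45 in the normal samples. These are 2 and 3 recovered counts in the oncogenic samples and 5 and 4 in the normal samples, not above the highest negative control in any sample, and 25 to 32 of the 33 viral probes were at or above it. A difference in miR-135b was therefore not detectable at this depth. The related miR-135a also stayed under 30, at 11.4 and 8.81 in the oncogenic and 13.2 and 12.1 in the normal samples. miR-590-5p, which in humans shares the seed of miR-21, was under 30 as well, at 8.74 and 5.28 in the oncogenic and 7.91 and 15.5 in the normal samples.

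**Figure D1:**
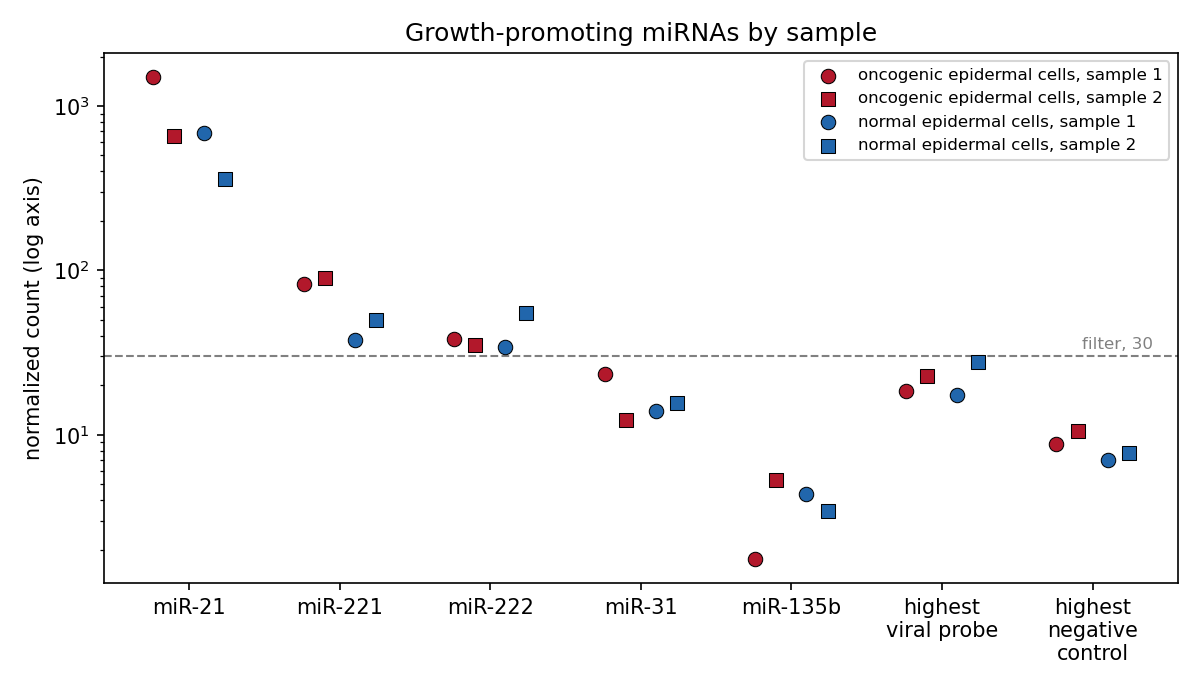
Normalized counts (log axis) of the 5 members in each sample, with the highest viral and the highest negative control probe of the same sample. Each point is a sample, red for oncogenic and blue for normal, a circle for sample 1 and a square for sample 2, and the dashed line is the filter at 30. miR-221 is the one member whose oncogenic samples (82.1 and 89.8) lie above both normal samples (37.8 and 50.0), miR-31 lies above the negative controls and around the highest viral probe, and miR-135b lies below both.

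Of the 3 tested members, 0 passed the adjusted threshold in either direction. Over all 124 tested miRNAs, 4.03% passed, 5 lower and 0 higher, and at an unadjusted p under 0.05 there were 26 lower (21%) and 4 higher (3.23%), with miR-221 among the 4. edgeR on recovered counts with the deposited factors called 4 lower and 0 higher. When samples were centred on their medians the split was 5 lower and 3 higher, as it was under a scaling by the 100 most abundant miRNAs. With the total miRNA count it was 8 lower and 1 higher, and no member was called in any of these. With the replicate number as a block, 24 were lower and 6 higher, and miR-21 was called higher (limma adjusted p = 0.0288). The labels do not say what a replicate number marks. The number lower was 25 without oncogenic sample 1, 8 without oncogenic sample 2, 3 without normal sample 1 and 1 without normal sample 2. Both oncogenic samples lay above both normal samples for 12.9% of the tested miRNAs, and miR-221 was the one tested member among them. They lay below both normal samples for 38.7%, with 0 of the 3 tested members among them. The difference was positive for 41.1% of the tested miRNAs, miR-21 and miR-221 included, and at or above that of miR-221 for 6.45%. The median log2 difference of the 3 tested members was 0.97, which is the value of miR-221 itself, against -0.19 over all tested miRNAs. Of all tested miRNAs, 5 had a larger difference than miR-21, 7 a larger one than miR-221 and 68 a larger one than miR-222.

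**Figure D2:**
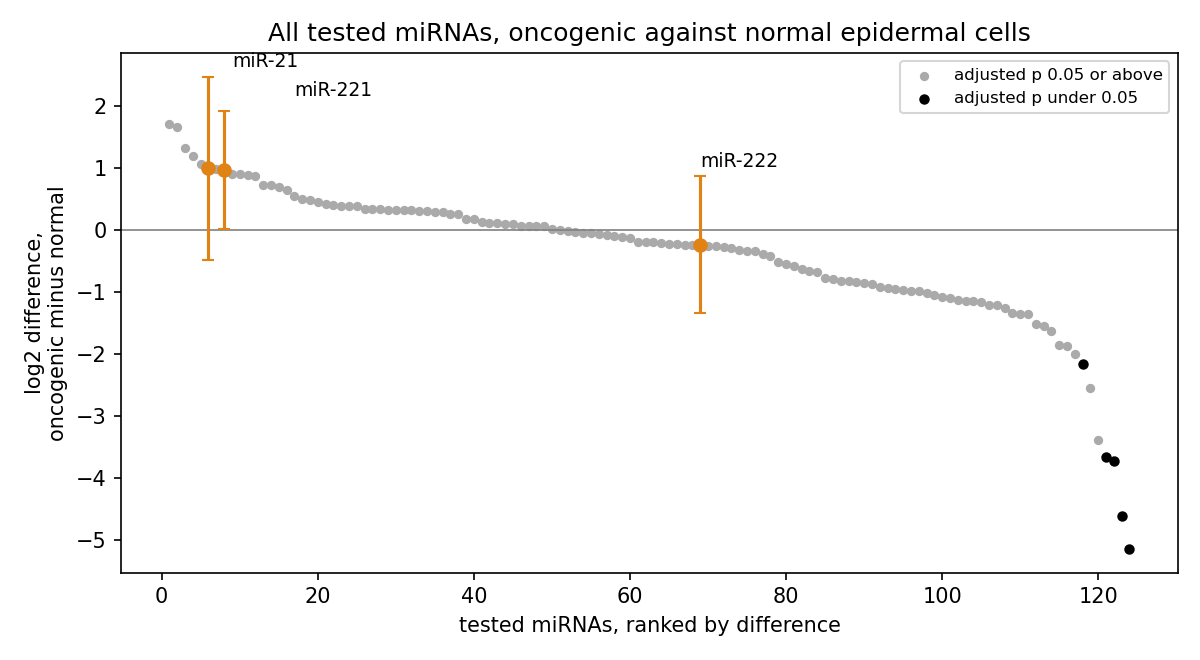
Log2 differences, oncogenic minus normal, of the 124 tested miRNAs, ranked from highest to lowest. Black points passed the adjusted threshold (5, all lower), grey points did not, and the orange points are the tested members with 95% intervals. miR-21 (1.00) and miR-221 (0.97) lie near the upper end, and miR-222 (-0.24) lies in the middle.

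Differences between samples depend on the scaling between them, so the members were also set against the median of all tested miRNAs. That median difference was -0.19 as deposited and ran from -0.60 with the housekeeping mRNA probes to 0.34 with each sample centred on its median. Relative to it, miR-21 lay 1.19 higher, miR-221 1.16 higher and miR-222 at -0.04 on the deposited scale. Under the 10 scalings compared, the deposited one included, miR-21 lay between 1.15 and 1.19 and miR-221 between 1.15 and 1.29 above the median of all tested miRNAs. miR-222 lay between -0.05 and 0.01 on the same relative scale. A factor for each sample moves all miRNAs almost alike, so these ranges are narrow by construction, except for quantile normalization. Unadjusted for that median, miR-21 and miR-221 had positive differences under all 10 scalings, while miR-222 had a negative one under 6 and a positive one under 4.

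**Figure D3:**
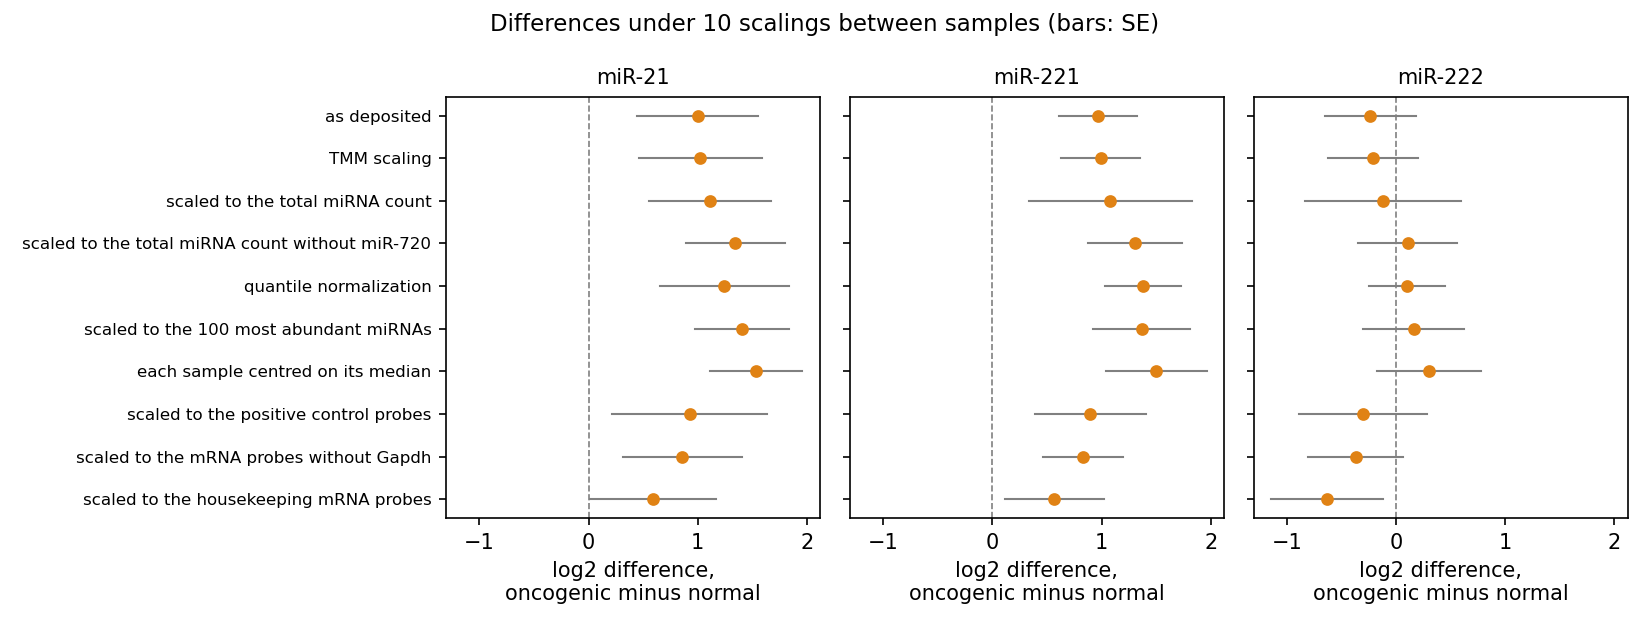
Log2 difference, oncogenic minus normal, of miR-21, miR-221 and miR-222 under 10 scalings between samples, with the SE of the limma fit as bars. miR-21 runs from 0.59 to 1.53 and miR-221 from 0.57 to 1.503, all positive, and miR-222 runs from -0.63 to 0.30 across the dashed line at 0.

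A ratio of 2 miRNAs within a sample does not depend on that scaling. The ratio of miR-221 to miR-222 was 2.14 and 2.55 in the oncogenic samples, against 1.102 and 0.91 in the normal samples. miR-221 gave more counts than miR-222 in both oncogenic samples, the normal samples lay near 1, and the groups did not overlap. The share of other pairs of tested miRNAs whose ratios separate the groups in this way was not computed. Singly, 12.9% of the tested miRNAs had both oncogenic samples above both normal samples, and 38.7% had them below. Whether the 2 probes count equally well was not tested. In counts, miR-221 made up 68.1% of the pair (Wilson 95% interval 59.9 to 75.3) in oncogenic sample 1 and 71.8% (60.5 to 81.0) in oncogenic sample 2. It made up 52.4% (41.8 to 62.9) in normal sample 1 and 47.5% (38.9 to 56.3) in normal sample 2. The mean log2 ratio was 1.22 ± 0.18 in oncogenic cells and 0.00 ± 0.20 in normal cells (SD, n = 2 each), a 2.34-fold difference larger than the spread in either group. The exact two-sided permutation test gave p = 0.333, the smallest that 2 samples against 2 allow. Leaving out each sample in turn gave log2 differences of 1.08 to 1.36. Probes for relatives of like sequence can share signal, and how far these 2 do was not tested.

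The ratio of miR-21 to miR-221 followed the sample number and not the group. It was 18.3 in oncogenic sample 1 and 18.1 in normal sample 1, and it was 7.27 in oncogenic sample 2 and 7.17 in normal sample 2. The mean log2 ratio was 3.53 ± 0.94 in oncogenic cells and 3.51 ± 0.95 in normal cells (SD, n = 2 each), an oncogenic minus normal difference of 0.02 (exact two-sided permutation p = 0.667). The 2 values at each number lie within each other's counting interval. The labels do not say whether a number marks a shared animal, litter or day. The third ratio, of miR-21 to miR-222, was 39.0 and 18.5 in the oncogenic samples, against 19.97 and 6.50 in the normal samples, with an overlap between groups and a log2 difference of 1.24 (exact two-sided permutation p = 0.667). Adjusted by Benjamini-Hochberg over the 3 ratios computed, each of the 3 exact permutation tests had p = 0.667.

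**Figure D4:**
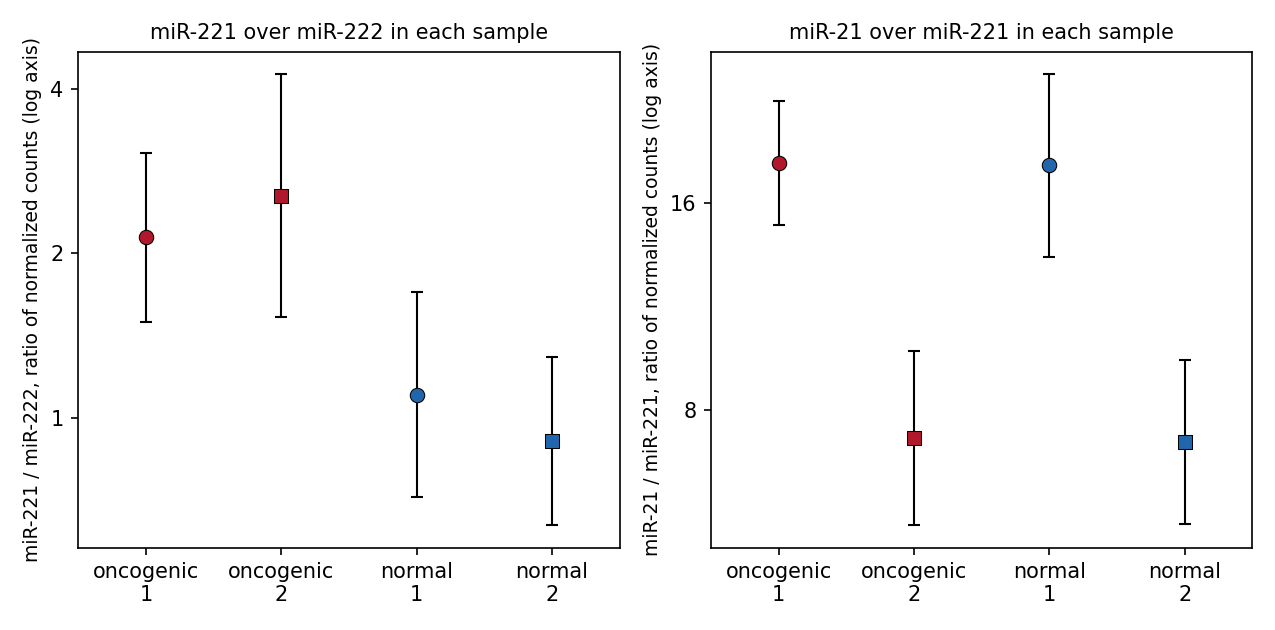
Ratio of miR-221 to miR-222 (left) and of miR-21 to miR-221 (right) in each sample, on log axes, with counting intervals (95% Wilson) as bars. On the left the oncogenic samples (2.14 and 2.55) lie above the normal ones (1.102 and 0.91), and on the right the samples numbered 1 (18.3 and 18.1) lie above those numbered 2 (7.27 and 7.17) in both groups.

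Set against the normal sample of the same number, miR-21 and miR-221 therefore had nearly the same folds. miR-21 was 2.19-fold higher in oncogenic than in normal sample 1 and 1.82-fold higher in oncogenic than in normal sample 2. miR-221 was 2.17-fold and 1.80-fold higher in these same-numbered comparisons. Between unlike numbers, miR-21 differed by 2.06 log2 units (oncogenic 1 minus normal 2) and by -0.07 (oncogenic 2 minus normal 1), whereas miR-221 differed by 0.71 and 1.23. Oncogenic exceeded normal in both same-numbered comparisons for 25.8% of the tested miRNAs, and in both unlike-numbered ones for 16.9%. miR-21 and miR-221 met the first and miR-221 alone of the 3 tested members met the second. The same-numbered ratios of oncogenic to normal were 1.12 and 0.64 for miR-222, 1.68 and 0.80 for miR-31 and 0.40 and 1.53 for miR-135b, so these members lay on both sides of 1.

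As a share of all miRNA counts in a sample, miR-21 did not overlap between groups. It took 0.745% (Wilson 95% interval 0.711 to 0.781) and 0.691% (0.624 to 0.764) in the oncogenic samples, against 0.412% (0.384 to 0.442) and 0.267% (0.242 to 0.293) in the normal samples. The oncogenic shares are close to each other and each lies above both normal shares beyond counting error. On this scale both oncogenic samples lay above both normal samples for 10.5% of the tested miRNAs, and below them for 32.3%. miR-221 took 0.0408% and 0.0950% in the oncogenic samples, against 0.0227% and 0.0372% in the normal samples. Its oncogenic shares were also higher but lay far apart. That of oncogenic sample 1 (Wilson 95% interval 0.0334 to 0.0499) was within counting error of normal sample 2 (0.0287 to 0.0480). miR-222 took 0.0191% and 0.0372%, against 0.0206% and 0.0410%, which overlapped. miR-720, one of the 5 most abundant probes, made up 45.9% of the total in oncogenic sample 1. Without these 5 in the total, miR-21 took 2.34% and 1.51% in the oncogenic samples, against 1.05% and 0.596% in the normal samples. The order of groups was the same, but the oncogenic shares of miR-21 lay further apart. On that scale miR-221 took 0.128% and 0.208%, against 0.0580% and 0.0831%. miR-222 took 0.0599% and 0.0816%, against 0.0526% and 0.0917%, which overlapped. Among the 566 probes of a sample, miR-21 ranked 15 and 27 in the oncogenic samples, against 30 and 42 in the normal samples. miR-221 ranked 76 and 65, against 109 and 99, and miR-222 ranked 101 and 96, against 113 and 95.

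**Figure D5:**
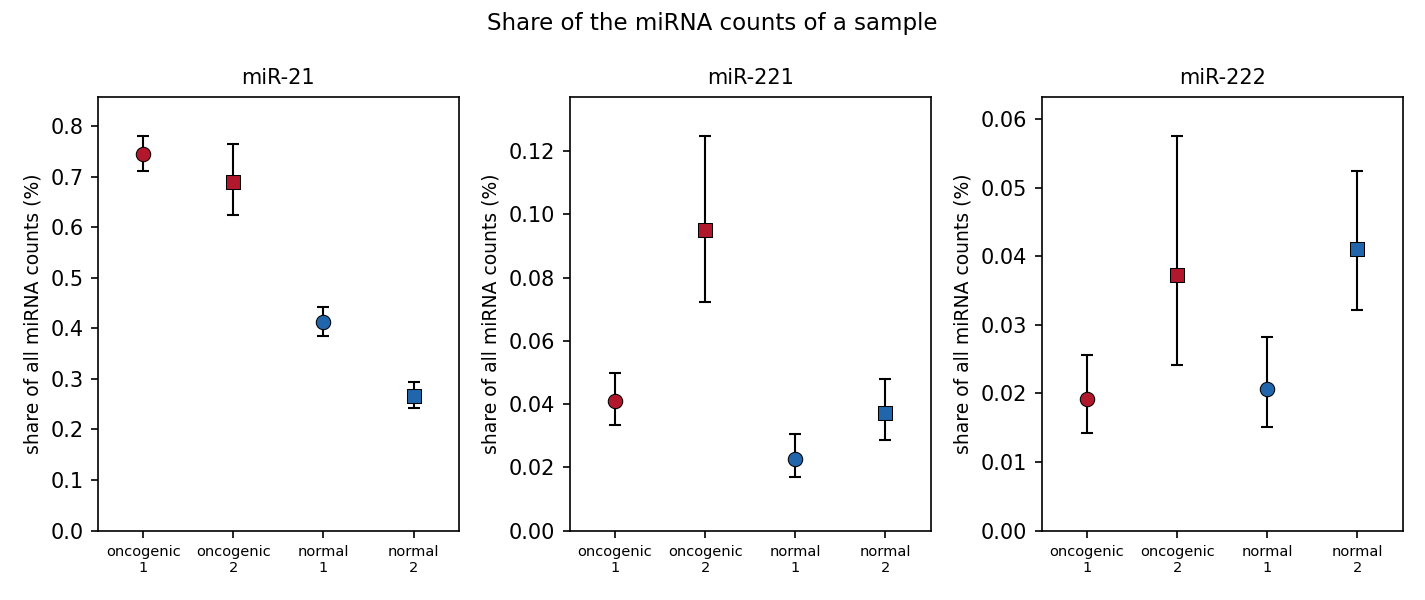
Share of all miRNA counts of a sample (%, axes from 0) taken by miR-21, miR-221 and miR-222, with Wilson 95% intervals of counting error. For miR-21 the oncogenic samples (0.745 and 0.691) lie above the normal samples (0.412 and 0.267), and for miR-222 the groups overlap.

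The miRNAs whose profiles over the 4 samples were nearest to each member were found by the Euclidean distance between log2 values, each centred on its own mean. Nearest to miR-21 were miR-138 (distance 0.51) and miR-130a (0.59), against a median distance of 1.84 to the other 123 tested miRNAs. miR-130a stood at 1196 and 727 normalized counts in the oncogenic samples, against 484 and 407 in the normal samples. Nearest to miR-221 were miR-28 (0.22) and let-7i (0.50), against a median of 1.40. miR-28 stood at 59.4 and 79.3 normalized counts in the oncogenic samples, against 30.7 and 43.1 in the normal samples, in the same order of samples as miR-221. Nearest to miR-222 were the keratinocyte miRNA miR-205 (0.13) and miR-191 (0.18), against a median of 0.98. No member was among the 2 nearest profiles of another. By distance from miR-21, miR-221 ranked 27 of 123 (distance 1.33, below the median) and miR-222 ranked 63. By distance from miR-221, miR-222 ranked 48 and miR-21 ranked 57. By distance from miR-222, miR-221 ranked 81 and miR-21 ranked 100.

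Other miRNAs reported higher in squamous carcinoma, hyperplastic epidermis or proliferating cells were mostly too low to test. Of 12 such miRNAs, 3 were tested, 0 passed, 2 had positive and 1 a negative difference, and their median difference was 0.30, against -0.19 over all tested miRNAs. miR-183, of a cluster raised in several carcinomas, stood at 156 and 166 normalized counts in the oncogenic samples, against 122 and 120 in the normal samples (log2 difference 0.41, limma adjusted p = 0.498). miR-155, an inflammatory miRNA, stood at 208 and 268, against 229 and 159, with an overlap (log2 difference 0.30, limma adjusted p = 0.702). miR-223, a miRNA of neutrophils, stood at 25.3 and 28.2, against 31.6 and 31.0 (log2 difference -0.22, limma adjusted p = 0.800).

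One marker each of pigment cells, endothelium, white and red blood cells passed the test, lower in oncogenic cells. These 4 miRNAs are themselves among the 5 called lower of all 124 tested (4.03%), so that share is not a separate background for them. The marker lists were also written with earlier results of these data known. miR-21, miR-221 and miR-222 are also expressed by fibroblasts, endothelium and blood cells, and in such samples fewer cells of a type and less RNA per cell cannot be told apart. The 3 red blood cell miRNAs summed to 46.3 and 47.6 normalized counts in the oncogenic samples, against 942 and 814 in the normal samples, with 1 of 2 tested lower (miR-451). The 2 endothelial miRNAs summed to 11.4 and 17.6, against 223 and 400, with 1 of 1 tested lower (miR-126-3p). The 6 white blood cell miRNAs summed to 334 and 440, against 621 and 492, with 1 of 5 tested lower (miR-146a). Of these 5, 4 had negative differences, while miR-155 had a positive one (0.30) with an overlap between groups. miR-142-5p, too low to test, went the other way, at 18.3 and 28.2 in the oncogenic samples, against 10.5 and 15.5. The 6 dermal and stromal miRNAs on the panel summed to 161 and 82.8, against 221 and 218, with 0 of 2 tested past the threshold. The 2 melanocyte miRNAs summed to 28.0 and 17.6, against 345 and 171, with 1 of 1 tested lower (miR-204). The 4 muscle miRNAs (34.9 and 44.0, against 44.8 and 51.7) stayed under 30. The 4 neural miRNAs summed to 83.9 and 59.9, against 45.7 and 37.0, with 0 of 1 tested past the threshold, and the tested one was miR-138. The 8 keratinocyte miRNAs summed to 40384 and 34289, against 41073 and 58011, a sum carried by miR-205 and miR-203. Of the 7 tested 0 passed, 6 had negative differences (median of the 7 -0.79), and for 4 the groups did not overlap, oncogenic being lower, against 38.7% of all tested miRNAs. miR-200b, of the epithelial miR-200 family and named after its values were seen, stood at 1087 and 733 normalized counts in the oncogenic samples, against 2326 and 2251 in the normal samples (limma adjusted p = 0.0998). miR-429 and miR-200a of the same family were also lower in both oncogenic samples (log2 differences -0.79 and -1.86, limma adjusted p = 0.210 and 0.114). miR-200c of the same family lay the other way, at 729 and 801, against 719 and 710 (log2 difference 0.10, limma adjusted p = 0.841). It was the 1 tested keratinocyte miRNA with both oncogenic samples above both normal samples, against 12.9% of all tested miRNAs. No marker of any list was at 0 in any sample, and the part of the marked cell types in the values of the members was not tested.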

How the data were processed

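Levels came from a deposited table with a signal column for each of 4 samples. The deposited signal was normalized by the authors; their method, any background subtraction and the software were not given in the sources used here. Per the labels, total RNA was profiled with nCounter miRNA assays. By their values, the 603 miRNA, mRNA and viral probes together hold whole counts times 1 factor per sample (0.874 and 1.76 in oncogenic, 0.878 and 0.861 in normal samples), and 100% came out whole within 0.1 count. The control probes are unscaled.

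limma (3.58.1, R 4.3.3; lmFit, eBayes with trend, two-sided) was fitted on log2(value + 1) over the 124 miRNAs that reached 30 in 2 samples or more. p-values were adjusted by Benjamini-Hochberg, and 0.05 was the threshold. This scale understates differences of low miRNAs. Alternatives were other scalings, pseudocounts, filters, no trend, background subtraction, left-out samples, the replicate number as a block, and edgeR (4.0.16) and DESeq2 (1.42.0) on recovered counts. Scaling to the total count and the miR-21 to miR-221 ratio were chosen after seeing the data. The miR-21 to miR-222 ratio was not planned either. This fit was first tested on simulated counts with changes larger than those of the members. That test does not tell how well differences of their size would be found. Named miRNAs were the members, probes with a related arm or seed, and the 2 nearest profiles of each tested member. Up to 4 most abundant tested miRNAs of each list were also named. Named outside this rule are miR-590-5p, miR-720, miR-142-5p, miR-200a, miR-200c, miR-34a, miR-1, miR-143 and the marker miRNAs that passed. Members and lists were chosen with earlier results of these data known.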

Additional observations from a re-analysis of the deposited data

How the results depend on the processing

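With the replicate number as a block, miR-21 passed the threshold (log2 difference 1.00, SE 0.36, limma adjusted p = 0.0288, against adjusted p values of 0.0691 to 0.796 under its other alternatives). In that replicate block fit 1 member was called higher, and over all tested miRNAs 24 were lower and 6 higher. Deviations of same-numbered samples from their group means correlated at r = 0.66 across 124 miRNAs, but with 2 samples a group this is 1 correlation and a hint from the data, not the design. miR-222 had a positive difference with centring (0.30), the 100 most abundant miRNAs (0.16), quantile normalization (0.10), DESeq2 (0.035) and the total count without miR-720 (0.10), and ran from -0.57 to 0.10 with a sample left out. miR-21 ran from 0.40 to 1.60 and miR-221 from 0.77 to 1.16 with a sample left out, and both stayed positive under every alternative run. Called miRNAs were 5 lower and 3 higher with centring or the 100 most abundant, 8 and 3 with DESeq2, 8 and 1 with the total count, 3 and 0 with quantile normalization, 2 and 0 with negative controls subtracted, and 1 to 25 lower and 0 to 2 higher with a sample left out. The causes of these changes were not tested. The miR-221 to miR-222 difference ran from 0.80 with a pseudocount of 30 to 1.53 with negative controls subtracted, and the miR-21 to miR-221 difference from -0.65 to 0.68 with a sample left out. With a minimum of 100, miR-221 and miR-222 could not be tested. Low counts limit miR-222 and miR-31, with 20 and 7 in oncogenic sample 2, and miR-135b, with at most 5 in any sample.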

Other observations

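Of 16 miRNAs reported lower in squamous carcinoma, or known to restrain keratinocyte growth, 10 were tested, 1 passed the test, against 4.03% lower over all tested miRNAs, and 10 had negative differences, with a median of -1.12, against -0.19 over all tested miRNAs. The groups did not overlap, oncogenic being lower, for 8 of the 10, against 38.7% of all tested miRNAs. The other 6 stayed under the filter, and miR-34a, miR-1 and miR-143 among them had higher oncogenic means. miR-125b-5p stood at 1256 and 1127 normalized counts in the oncogenic samples, against 2147 and 2108 in the normal samples (log2 difference -0.84, limma adjusted p = 0.148). miR-365 stood at 233 and 181, against 423 and 541 (log2 difference -1.21, limma adjusted p = 0.114). miR-203, which restricts the growth of basal keratinocytes, stood at 9969 and 8229, against 10250 and 10451 (log2 difference -0.19, limma adjusted p = 0.800), and miR-34c, of the p53 pathway, at 342 and 537, against 339 and 599 (log2 difference -0.07, limma adjusted p = 0.925). The one that passed the test was miR-204, at 19.2 and 15.9, against 331 and 164 (log2 difference -3.66, limma adjusted p = 0.0319), named after its values were seen. It is also a pigment cell marker, and the list was written with earlier results of these data known.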
